A study of Glycine max with 4 samples.

Results

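The level of 10 genes was followed in soybean (Glycine max) root: 3 genes of the rhg1 resistance locus, alpha-SNAP genes, NSF genes and the Rhg4 gene. They were chosen by identifier, from a fixed list looked up among the 47973 genes listed in at least 1 library. All 10 were found, namely 3 genes of the rhg1 repeat on chromosome 18 (1 of them an alpha-SNAP), 4 further alpha-SNAP genes, 2 NSF genes and the Rhg4 serine hydroxymethyltransferase. The names follow the usual assignment of these identifiers, since the deposited tables themselves carry no gene names.

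Alpha-SNAP is an adaptor that binds spent SNARE complexes on membranes and recruits NSF, an ATPase that pulls the complexes apart so that vesicle fusion can go on. In soybean, rhg1 and Rhg4 are known as the loci behind resistance to the soybean cyst nematode, a parasite of roots. The rhg1 repeat carries genes for an amino acid transporter, an alpha-SNAP and a wound-inducible protein of the WI12 type. Resistant lines carry extra copies of the repeat and an altered alpha-SNAP. Rhg4 encodes a serine hydroxymethyltransferase (SHMT), an enzyme of one-carbon metabolism.

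Messenger RNA of whole roots was sequenced from wild-type plants (WT, n = 2 libraries) and from transgenic plants with suppressed GmHAD1-2 (Ri, n = 2 libraries). GmHAD1-2 is named after the haloacid dehalogenase superfamily, which holds many phosphatases. Both genotypes were kept in nutrient solution with KH2PO4 (250 mM as stated, a unit in doubt because such solutions are usually micromolar) and roots were taken after 12 days. No nematode treatment is named. The cultivar, the number of rhg1 copies it carries, the promoter and number of transgenic lines behind Ri, and the plants pooled per library are not stated in the labels. The libraries held 10077854 to 11070260 expected counts. Ri replicate 1 had the fewest counts but the most genes listed, 44830 against 41921 to 42618 in the other libraries. Spread was wider between the Ri replicates than between the WT replicates, with an SD of the log2 difference of 0.57 against 0.31 over 20250 genes of at least 8 CPM (CPM, counts relative to the scaled library size). GmHAD1-2 was not tied to an identifier and its suppression was not checked, and markers of the tissue were not analysed here. In whole roots, fewer cells of a type and less RNA per cell cannot be told apart.

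Per unit of transcript length, the 3 rhg1 genes and the chromosome 11 alpha-SNAP stood at the top of the list, Rhg4 and the NSF genes lay below them, and 3 alpha-SNAP genes were low or at the detection floor. Levels of different genes are given as the deposited FPKM (fragment numbers relative to transcript length and sequencing depth). The rhg1 alpha-SNAP, Glyma.18G022500.Wm82.a2.v1, was at 61.1 FPKM ± 7.24 (SD over all 4 libraries) and exceeded 95.3% to 96.5% of the genes listed in a library. The alpha-SNAP of chromosome 11, Glyma.11G234500.Wm82.a2.v1, followed at 52.4 FPKM ± 2.37, and the rhg1 amino acid transporter, Glyma.18G022400.Wm82.a2.v1, at 52.4 FPKM ± 3.42. The ranges of these 3 genes over the libraries overlapped one another, although the transporter was below the rhg1 alpha-SNAP in 4 of 4 libraries. WI12, Glyma.18G022700.Wm82.a2.v1, was lower in every library, at 40.2 FPKM ± 4.57. Its place above Rhg4 and the NSF genes depends on the division by its listed length of 477 bases. In mean CPM it was below them, at 18.2 against 36.8 for Rhg4 and 23.9 and 19.6 for the chromosome 13 and 7 NSF genes.

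Rhg4, Glyma.08G108900.Wm82.a2.v1, was at 18.3 FPKM ± 8.09 and had the widest spread of the 10 genes in FPKM, from 8.02 to 27.0 FPKM. The NSF genes followed. Glyma.13G180100.Wm82.a2.v1 was at 8.87 FPKM ± 0.622 and Glyma.07G195900.Wm82.a2.v1 at 6.64 FPKM ± 1.29, with the former higher in 4 of 4 libraries and no overlap of their ranges. The range of Rhg4 reached down to that of the chromosome 13 NSF gene, through Ri replicate 1, where both stood at 8.02 FPKM.

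The remaining alpha-SNAP genes were far below the first pair. Glyma.09G279400.Wm82.a2.v1 was at 3.74 FPKM ± 1.35 and Glyma.14G054900.Wm82.a2.v1 at 2.81 FPKM ± 0.659, with overlapping ranges. Glyma.02G260400.Wm82.a2.v1 was listed in 2 of 4 libraries, with 1.17 expected counts in WT replicate 2 and 1.12 in Ri replicate 1. All 4 values of this gene lie under the floor of 3 counts per library (0.264 to 0.306 CPM), so its transcript was not detectable at this depth and no fold is given for it.

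**Figure D1:**
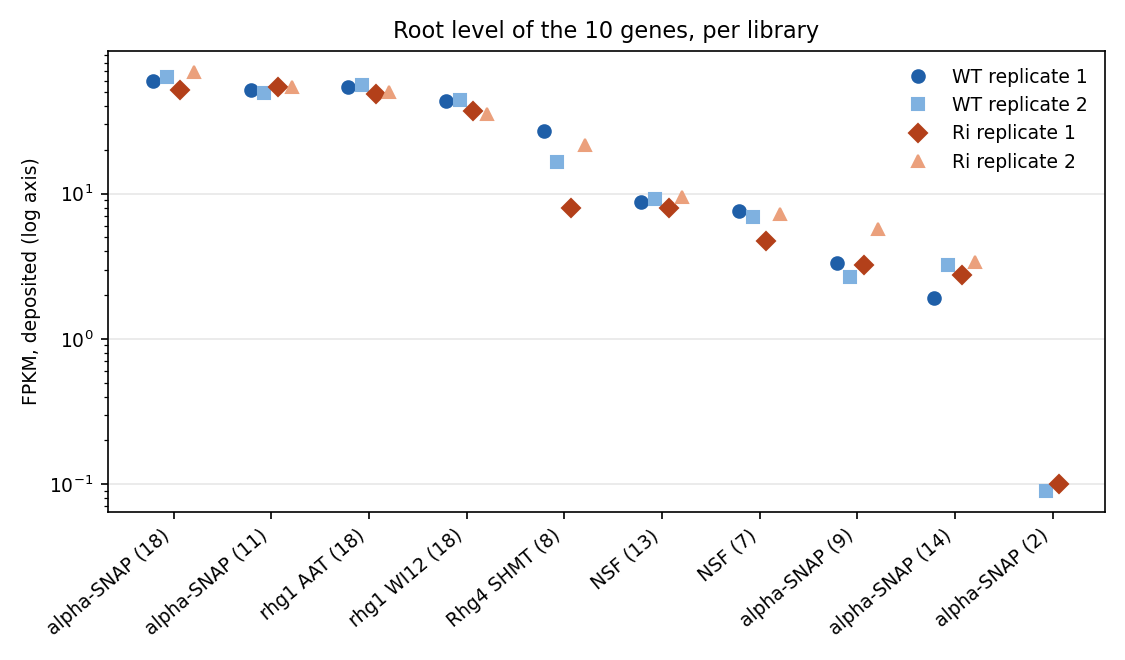
Deposited FPKM (log axis) of the 10 genes in each of the 4 root libraries, ordered by mean level, with the chromosome in brackets; a library in which a gene is not listed has no point. The first 4 genes lie between 35.5 and 69.3 FPKM in all libraries, and Rhg4 spreads from 8.02 to 27.0 FPKM.

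The 3 rhg1 genes of the list were more abundant per transcript length than the other genes numbered around and between them. Of the identifiers from Glyma.18G021900 to Glyma.18G023200, 12 were listed, and the 9 that are not members of the list all had a lower mean FPKM than each of the 3 rhg1 genes. The most abundant of them in FPKM, Glyma.18G023200.Wm82.a2.v1, was at 10.2 to 13.2 FPKM. Without division by length this gene exceeded WI12, at a mean of 33.6 against 18.2 CPM, with listed lengths of 2946 and 477 bases. The gene numbered between the rhg1 alpha-SNAP and WI12, Glyma.18G022600.Wm82.a2.v1, had 1, 2, 4 and 4 counts in WT replicates 1 and 2 and Ri replicates 1 and 2, at or close to the floor. Coordinates were not used, so a gene numbered between the 3 can itself lie within the repeat. Least abundant was Glyma.18G023000.Wm82.a2.v1, listed with 2 counts in WT replicate 2 and 1 count in Ri replicate 1.

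**Figure D2:**
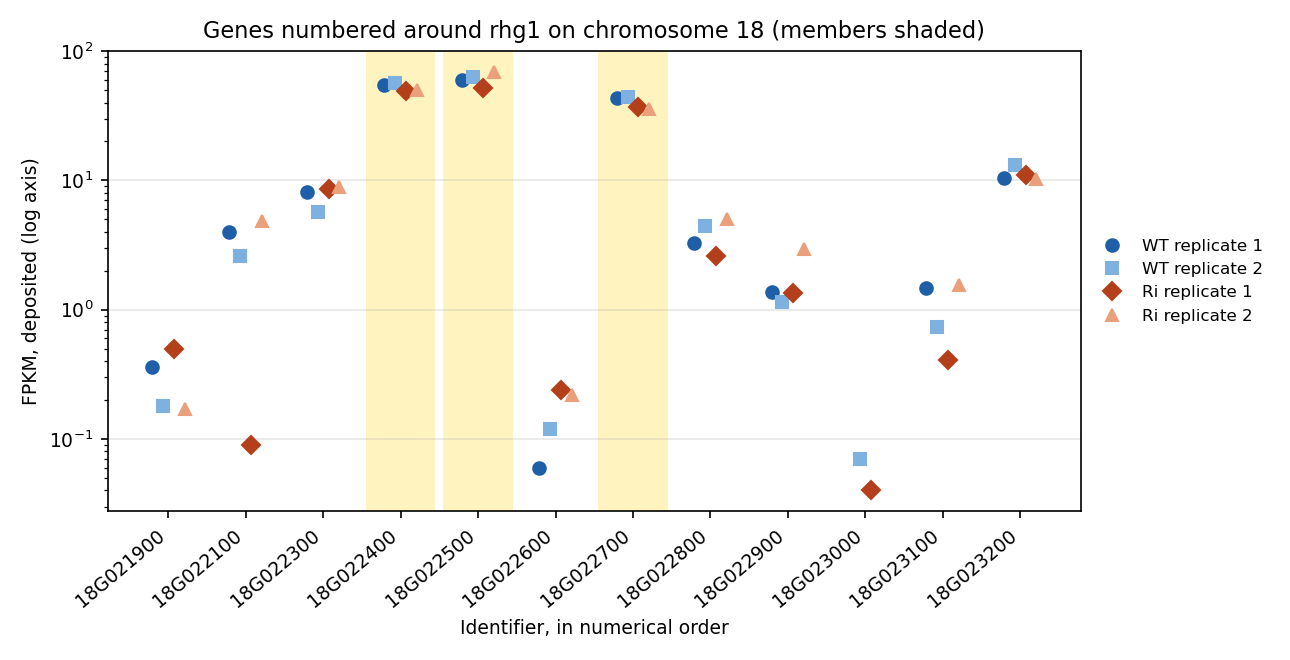
Deposited FPKM (log axis) of the genes numbered around rhg1, in the order of their identifiers, for each library; the 3 rhg1 genes are shaded and a library in which a gene is not listed has no point. The shaded genes lie at 35.5 to 69.3 FPKM and the others at 13.2 FPKM or less.

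Within the rhg1 repeat, transcripts of the transporter and of WI12 were fewer per length than those of the alpha-SNAP in 4 of 4 libraries. The ratio of transporter to alpha-SNAP was 0.911 and 0.885 in WT replicates 1 and 2 and 0.941 and 0.722 in Ri replicates 1 and 2. For WI12 to alpha-SNAP it was 0.735 and 0.700 in WT and 0.712 and 0.512 in Ri. Ri replicate 2 was the lowest library in both ratios, and its alpha-SNAP value, 69.3 FPKM, was the highest of the 4. The listed transcript of WI12 has 477 bases, so that its FPKM depends more on the length correction than that of the 1902-base transporter.

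Nearly all of the summed alpha-SNAP FPKM of the root came from 2 paralogues, with the chromosome 18 gene ahead in 3 of 4 libraries. In WT replicate 1 the chromosome 18 gene gave 51.2% of the summed FPKM of the 5 genes, in WT replicate 2 53.4%, in Ri replicate 1 46.4% and in Ri replicate 2 52.2%. The chromosome 11 gene gave 44.3%, 41.6%, 48.2% and 41.0% in the same order. The chromosome 9 gene held 2.23% to 4.30%, the chromosome 14 gene 1.63% to 2.71%, and the chromosome 2 gene at most 0.089%. Both WT libraries and Ri replicate 2 thus had more of the rhg1 copy, and Ri replicate 1 had slightly more of the chromosome 11 copy.

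**Figure D3:**
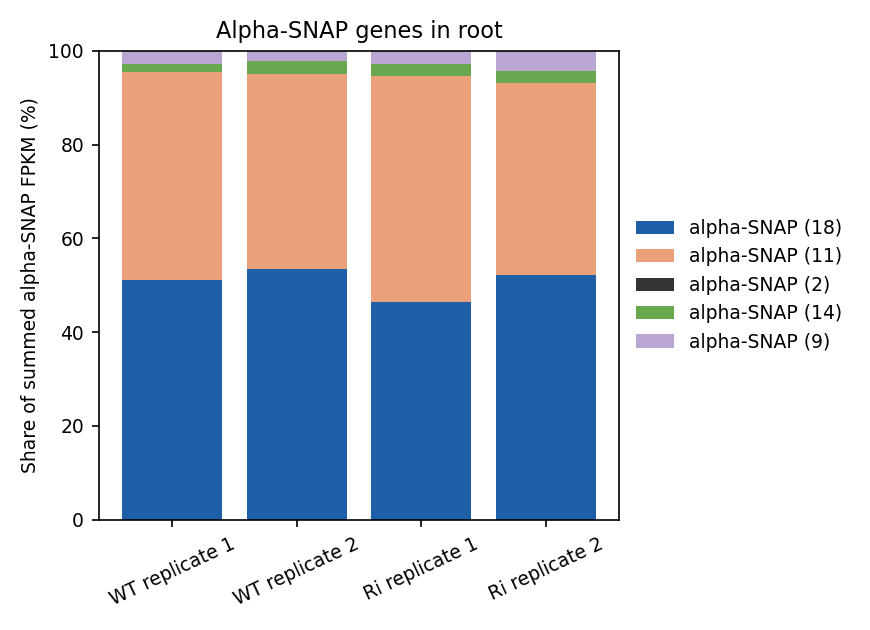
Share (%) of each alpha-SNAP gene in the summed FPKM of the 5 genes, per library, with the chromosome in brackets. The chromosome 18 and 11 genes make up nearly the whole bar in each library, and the chromosome 18 part is smallest in Ri replicate 1, at 46.4%.

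Ri replicate 1 stood apart from WT replicate 2 and Ri replicate 2 by more than counting error. Among the expected counts of the chromosome 18 and 11 genes together, the chromosome 18 share was 54.0% of 1592 in WT replicate 1 (exact 95% binomial interval 51.5% to 56.4%) and 56.6% of 1617 in WT replicate 2 (54.1% to 59.0%). It was 49.4% of 1433 in Ri replicate 1 (46.8% to 52.0%) and 56.3% of 1837 in Ri replicate 2 (54.0% to 58.6%). The interval of Ri replicate 1 does not reach those of WT replicate 2 and Ri replicate 2, and it overlaps that of WT replicate 1. The intervals cover counting error only. Neither gene has whole counts, so some fragments were shared out between similar sequences, and the balance rests in part on how the authors' counting assigned them.

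The genotypes were not separated by this balance. The log2 ratio of the chromosome 18 to the chromosome 11 gene, in FPKM, was 0.29 ± 0.11 in WT and 0.15 ± 0.28 in Ri (SD, n = 2 each), a difference of -0.14 with an exact two-sided permutation p of 0.667. With 2 libraries against 2 the smallest p is 0.33, so no test of a single ratio could pass 0.05. The genotypes overlapped, with Ri replicate 1 lowest and WT replicate 2 highest. Without Ri replicate 1 the difference was 0.06.

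Between the minor paralogues the order changed from library to library. The ratio of the chromosome 14 to the chromosome 9 gene was 0.569 and 1.22 in WT replicates 1 and 2 and 0.843 and 0.588 in Ri replicates 1 and 2. Only 78 to 140 expected counts per library stand behind each of these ratios. In WT replicate 1 the chromosome 14 gene held 38.5% of those counts (exact 95% binomial interval 27.7% to 50.2%), and in WT replicate 2 it held 57.3% (46.4% to 67.7%), so that the intervals of the WT replicates overlap. The chromosome 9 gene is the 1 member with whole counts in every library (within 0.005).

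For NSF, the ATPase that alpha-SNAP recruits, the chromosome 13 gene was the more abundant one per length in all 4 libraries. The ratio of the chromosome 7 to the chromosome 13 gene was 0.867 and 0.755 in WT replicates 1 and 2 and 0.591 and 0.764 in Ri replicates 1 and 2. Ri replicate 1 was the library farthest from the others, though not by more than counting error. Among the expected counts of both NSF genes, its chromosome 7 share was 39.7% of 360. The shares were 48.8% of 494 and 45.3% of 483 in WT replicates 1 and 2 and 45.6% of 515 in Ri replicate 2. The exact 95% binomial interval of Ri replicate 1 overlapped that of each other library. In FPKM the log2 ratio was -0.31 ± 0.14 in WT and -0.57 ± 0.26 in Ri (SD, n = 2 each; exact permutation p = 0.667). For the chromosome 7 gene the listed length in Ri replicate 1 was 2970 bases against 2917 in the others, which shows another weighting of its 2 listed transcripts there.

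Alpha-SNAP transcripts outnumbered NSF transcripts severalfold per length. The 5 alpha-SNAP genes summed to 116, 119, 112 and 133 FPKM and the 2 NSF genes to 16.5, 16.2, 12.8 and 16.6 FPKM in WT replicates 1 and 2 and Ri replicates 1 and 2. Their ratio was 7.07 and 7.36 in WT and 8.81 and 7.995 in Ri, so that both Ri libraries lay above both WT libraries. On the log2 scale the ratio was 2.85 ± 0.04 in WT and 3.07 ± 0.10 in Ri (SD, n = 2 each), a difference of 0.22 with an exact permutation p of 0.33, the smallest that 2 against 2 can give. After Benjamini-Hochberg adjustment over the 8 shares and ratios tested, every p was 1.0. In Ri replicate 1 the higher ratio came with the lowest NSF sum, and in Ri replicate 2 with the highest alpha-SNAP sum.

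**Figure D4:**
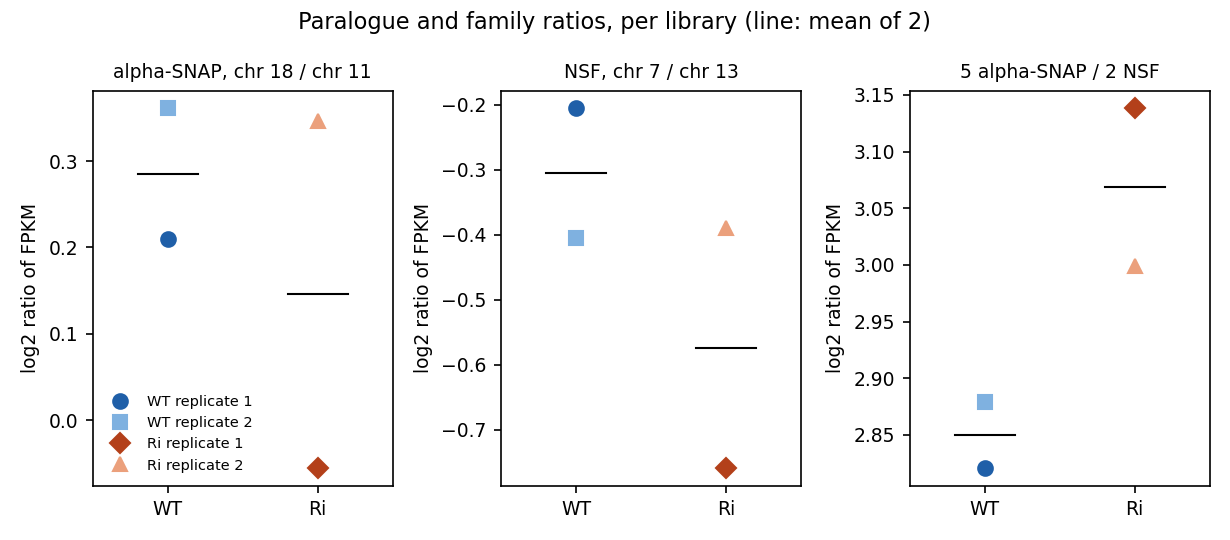
Log2 ratio of FPKM in each library for the chromosome 18 over the chromosome 11 alpha-SNAP, the chromosome 7 over the chromosome 13 NSF gene, and the 5 alpha-SNAP over the 2 NSF genes; lines are means of 2 libraries and the vertical axes differ and do not start at 0. Ri replicate 1 is the lowest library in the first 2 ratios, and in the last one both Ri libraries, at 3.14 and 2.999, lie above WT.

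Between genotypes, no gene of the list passed the test. Of the 10 genes, 9 had enough counts to be tested and 0 were called in Ri against WT (quasi-likelihood test of edgeR, adjusted p under 0.05 by Benjamini-Hochberg over 34151 genes), where 0.117% of all tested genes were called. At an unadjusted p under 0.05 there were also 0 of 9, against 6.25% of all tested genes, and DESeq2 and limma called 0 as well. The median log2 fold change of the 9 genes was -0.06, beside 0.02 over all tested genes. In CPM, the genotypes did not overlap and Ri was lower for 3 of the 9 genes (18.5% of all tested genes) and higher for 2 of the 9 (17.7% of all tested genes).

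**Figure D5:**
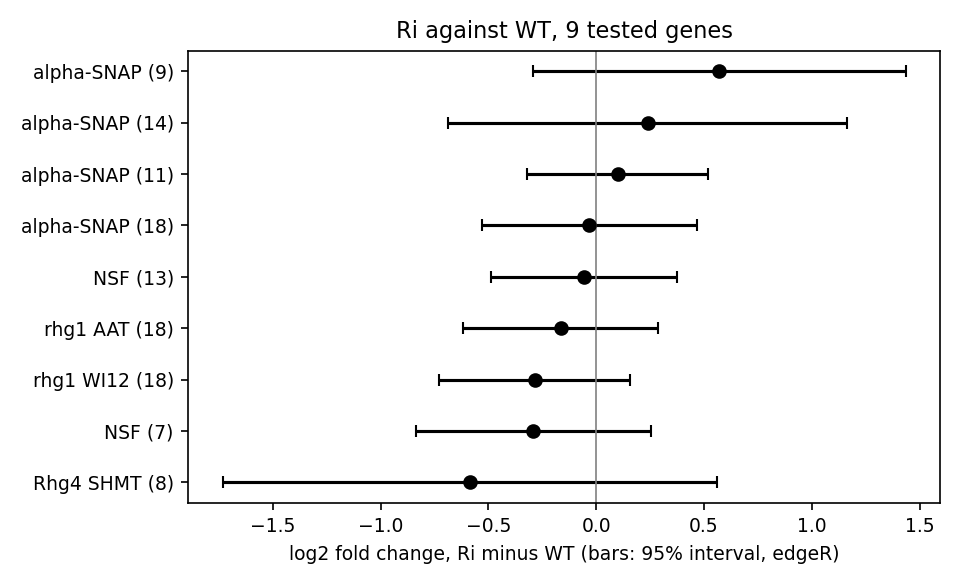
Log2 fold change, Ri minus WT, of the 9 tested genes with 95% intervals from edgeR's quasi-likelihood fit (n = 2 libraries per genotype). All 9 intervals include 0, and that of Rhg4 is the widest, from -1.73 to 0.56.

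The major alpha-SNAP genes had intervals that lay on both sides of 0. The rhg1 alpha-SNAP Glyma.18G022500.Wm82.a2.v1 was at 79.0 and 88.0 CPM in WT replicates 1 and 2 and at 72.2 and 91.1 CPM in Ri replicates 1 and 2. The Ri values thus enclosed the WT values. Its log2 fold change was -0.03 ± 0.21 (SE), with a 95% interval of -0.53 to 0.47 and an edgeR adjusted p of 0.989. The chromosome 11 alpha-SNAP Glyma.11G234500.Wm82.a2.v1 was the steadiest gene between WT replicates, at 67.4 and 67.6 CPM, and stood at 74.0 and 70.6 CPM in Ri. Both Ri values were above WT, by little: the log2 fold change was 0.10 ± 0.17 (SE), with a 95% interval of -0.32 to 0.52 and an edgeR adjusted p of 0.953.

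The other rhg1 genes both had lower values in Ri that did not pass. For the transporter Glyma.18G022400.Wm82.a2.v1 the libraries gave 102 and 110 CPM in WT and 96.3 and 93.2 CPM in Ri, a log2 fold change of -0.16 ± 0.19 (SE; edgeR adjusted p = 0.928). WI12, Glyma.18G022700.Wm82.a2.v1, had 19.4 and 20.6 CPM in WT and 17.2 and 15.6 CPM in Ri. Neither gene overlapped between genotypes. The log2 fold change of WI12 was -0.29 ± 0.18 (SE), with a 95% interval of -0.73 to 0.16 and an edgeR adjusted p of 0.883. For the 6 tested neighbours of rhg1 the count of calls was 0 too, with a median log2 fold change of -0.10 and a range from -0.41 to 0.73.

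Among the minor alpha-SNAP genes, Glyma.09G279400.Wm82.a2.v1 had the largest positive fold change of the list. It was at 4.41 and 3.66 CPM in WT and at 4.49 and 7.48 CPM in Ri, so that Ri replicate 1 hardly exceeded WT replicate 1. The log2 fold change was 0.57 ± 0.36 (SE; edgeR adjusted p = 0.874), and it was 0.15 without Ri replicate 2 and 0.89 without Ri replicate 1 (edgeR adjusted p = 0.898 and 0.142). In FPKM the genotypes overlapped for this gene, at 3.34 and 2.65 FPKM in WT and 3.25 and 5.71 FPKM in Ri. The chromosome 14 gene Glyma.14G054900.Wm82.a2.v1 had 2.76 and 4.89 CPM in WT and 4.17 and 4.84 CPM in Ri, with overlap and an edgeR adjusted p of 0.947.

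Of the NSF genes, Glyma.07G195900.Wm82.a2.v1 was at 22.2 and 21.1 CPM in WT and at 14.6 and 20.7 CPM in Ri. In CPM its Ri values lay below WT, one of them by a small margin, and in FPKM the genotypes overlapped, at 7.64 and 6.96 FPKM in WT and 4.74 and 7.20 FPKM in Ri. The log2 fold change was -0.29 ± 0.22 (SE; 95% interval -0.83 to 0.25; edgeR adjusted p = 0.897), and without Ri replicate 1 it was -0.06 and without Ri replicate 2 -0.57 (edgeR adjusted p = 0.936 and 0.177). Glyma.13G180100.Wm82.a2.v1 had 23.2 and 25.4 CPM in WT and 22.1 and 24.6 CPM in Ri, with overlap and a log2 fold change of -0.06 ± 0.18 (SE; edgeR adjusted p = 0.975).

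Rhg4 varied more between the Ri replicates than any other tested gene of the list. The SHMT gene Glyma.08G108900.Wm82.a2.v1 was at 54.0 and 34.5 CPM in WT replicates 1 and 2 and at 16.7 and 42.1 CPM in Ri replicates 1 and 2. The 2 Ri libraries differed 2.52-fold and lay on both sides of WT replicate 2. Among the 20250 genes of at least 8 CPM, 3.28% differed at least as much between the Ri replicates, and 3.86% differed between the WT replicates at least as much as this gene did there. The log2 fold change was -0.59 ± 0.46 (SE), with a 95% interval of -1.73 to 0.56 and an edgeR adjusted p of 0.901.

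Which Ri library was kept decided the value for Rhg4. Without Ri replicate 2 the log2 fold change was -1.41 and the gene passed (edgeR adjusted p = 0.0152), in a fit that called 2.78% of all tested genes as lower and took its spread from the WT libraries. Without Ri replicate 1 it was -0.07 (edgeR adjusted p = 0.932). In CPM, Ri replicate 1 was the lowest library for Rhg4, both NSF genes and the rhg1 alpha-SNAP, and the highest for the chromosome 11 alpha-SNAP. It was also low for the rhg1 neighbour Glyma.18G022100.Wm82.a2.v1, which was at 3.98 and 2.59 FPKM in WT and 0.09 and 4.85 FPKM in Ri. That neighbour, with 1 expected count in Ri replicate 1, was likewise called as lower without Ri replicate 2 (edgeR adjusted p = 0.00403). Whether these low values share a source in that library was not tested.

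The genes whose pattern over the 4 libraries was closest to that of the rhg1 alpha-SNAP Glyma.18G022500.Wm82.a2.v1 were not members of the list. Among 24185 other genes of at least 5 CPM, Glyma.01G080700.Wm82.a2.v1 came first, at a root mean square distance of 0.0073 between log2 CPM values centred on their mean, and Glyma.09G096800.Wm82.a2.v1 second, at 0.013. With 4 libraries such closeness is a description only. Of the list itself, the chromosome 13 NSF gene was closest, at 0.0652, ahead of the rhg1 transporter at 0.148, the chromosome 7 NSF gene at 0.164, the chromosome 11 alpha-SNAP at 0.166 and WI12 at 0.206. The chromosome 9 alpha-SNAP, at 0.32, and Rhg4, at 0.55, were the farthest of those compared. How many of the 24185 genes lay as close as these members was not counted.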

How the data were processed

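For each library the authors deposited a table that holds, per the file headers, a transcript length, an expected count (estimated fragments per gene, not normalized and not always whole) and FPKM, scaled by the authors for length and depth. The submitters' processing notes name Bowtie2, HISAT and RSEM, with no role or version; trimming and the use of strand are not given in the sources at hand. Identifiers end in Wm82.a2.v1, a Williams 82 assembly. Genes without a row were taken as 0. Of 47973 identifiers, 0 matched the RefSeq table at hand (59048 genes, Glycine_max_v4.0), so no sequence, coordinate or product-name list (SNARE, SHMT family, tissue markers) was used.

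Expected counts were rounded and tested across 34151 genes with edgeR 4.0.16 (R 4.3.3; TMM, default filter, robust quasi-likelihood F-test, genotype only; Benjamini-Hochberg adjusted p threshold 0.05). The SE is the log2 fold change over the square root of F. Levels between genes use FPKM, comparisons between libraries CPM on TMM-scaled totals. Shares and ratios were compared with exact permutation tests (SciPy 1.17.1). Alternatives used DESeq2 1.42.0 and limma 3.58.1 (voom, log2(FPKM + 1), log2(FPKM + 0.1)), other scalings and filters, a replicate block and each library left out. The fits were tried on simulated counts drawn with the same spread in both genotypes, whereas the Ri replicates spread more widely than WT here. The members and lists were chosen with earlier results of these data known. All 10 members are named; of the rhg1 neighbours, those called, the most and the least abundant; and the 2 genes closest in pattern to the rhg1 alpha-SNAP. Glyma.18G022600.Wm82.a2.v1 and Glyma.18G022100.Wm82.a2.v1 were named after their values were seen. The submitters call the libraries of a genotype biological replicates.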

Additional observations from a re-analysis of the deposited data

How the results depend on the processing

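No member was called in any of the 12 alternatives planned with all 4 libraries, and none of their 108 member fold changes turned sign; 0 to 1 members were called with 1 library left out (Rhg4 without Ri replicate 2), and 0 to 1 rhg1 neighbours. In the fits without 1 library, in which the lone library is assumed to vary like the others, 5 of 36 fold changes turned sign. The log2 fold change of Glyma.18G022500.Wm82.a2.v1 then ran from -0.21 to 0.13, that of Glyma.14G054900.Wm82.a2.v1 from -0.13 to 0.72 and that of Glyma.13G180100.Wm82.a2.v1 from -0.14 to 0.0245. The difference in the log2 ratio of the chromosome 18 to the chromosome 11 alpha-SNAP ran from -0.34 to 0.0613.

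Over all genes, 40 were called. The number was 0 with library totals (2131 genes at an unadjusted p under 0.05), in limma-voom (2069) and in limma on log2(FPKM + 1) (2182), log2(FPKM + 0.1) (2131) and unfiltered FPKM (2695). It was 12 with upper-quartile factors, 13 without robust estimation, 164 without a filter and 301 in DESeq2, and 0 to 1994 with 1 library left out. The cause was not tested. The replicate block called 107 genes and 0 members; same-numbered libraries were not treated as pairs, because the replicate differences of WT and Ri had a correlation across genes of -0.32. Crossing the numbers in the replicate block, a choice made after seeing the data, called 68 genes and 0 members.

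Without division by length the log2 ratio of summed alpha-SNAP to NSF was 1.79 in WT and 2.01 in Ri, because the NSF transcripts are longer, and the chromosome 14 share in Ri was 2.74%. With 0.1 added to each FPKM that share was 2.56%, and the share of the chromosome 2 gene 0.122% in WT and 0.126% in Ri. The other alpha-SNAP shares, the ratio of the chromosome 18 to the chromosome 11 alpha-SNAP and the NSF ratio moved by less than 1 SD under these scales; the ratios within the rhg1 repeat and of the chromosome 14 to the chromosome 9 gene were computed on FPKM alone. Depth limits the chromosome 2 gene, and 2 libraries per genotype limit every interval.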
